A study of Mus with 6 samples.

Results

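The cadherins and the non-clustered protocadherins were examined in RNA-seq libraries of the mouse basolateral amygdala. They were taken as every protein-coding gene of the deposited table whose name is Cdh or Pcdh followed by a number, with or without a final x, which gave 35 of the 54532 genes listed. Of these, 26 reached a mean of at least 1 FPKM over the 6 libraries (FPKM counts fragments per kilobase of transcript, scaled for library size, so levels of different genes compare per length), and they are among the 13087 genes tested. The wild-type group (WT1, WT2 and WT3) and the CNTNAP4-KO group (KO1, KO2 and KO3) each held 3 libraries from mice labelled female. The labels do not give the knockout allele, the strain, the age, any treatment or whether each library came from its own animal. The p-values therefore set the groups' difference against a spread between libraries that may be technical.

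Cadherins are adhesion proteins of the cell surface that hold cells together in the presence of calcium, mostly by binding a cadherin on the facing cell. Type I and type II classical cadherins are anchored to actin through catenins, and each neuron type carries its own mix of type II cadherins, which takes part in sorting neurons and matching synaptic partners. Non-clustered protocadherins adhere weakly and signal through their cytoplasmic tails; the delta-1 proteins bind protein phosphatase 1, and several delta-2 proteins bind the WAVE complex, which drives actin assembly.

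The libraries held between 15933029 and 17789798 reads recovered from the FPKM values, with 22166 to 23375 genes above 0. Cntnap4, the targeted gene (chr8:112570043-112882717, positions as in the table, for which the processing notes name GRCm38 and mm10), stood at 3.53, 3.90 and 2.15 FPKM in the WT libraries and at 1.08, 1.19 and 1.28 in the KO libraries. It was lower in each KO library than in any WT library but not at 0 in any of them (log2 fold change -0.92, SE 0.18, limma adjusted p = 0.302). Striatal and central amygdala markers, genes of tissue that borders the basolateral amygdala, summed to 628.8 FPKM in WT3 and 272.5 in KO3 and to between 49.4 and 75.5 in the other 4 libraries, so the 2 libraries numbered 3 stood apart. Values without both of them are given beside each member for which this moved the unadjusted p across 0.05.

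Cadherin genes differed between the groups in both directions. Cdh12, Cdh6, Cdh18, Cdh10, Pcdh9 and Pcdh7 were higher in each KO library than in any WT library, and Cdh4, Cdh9, Cdh22 and Cdh13 were lower in each KO library than in any WT library. These 10 of the 26 members tested (38.5%) compare with 22% of all genes tested whose groups did not overlap, 11.9% with KO higher and 10.1% with KO lower. The same 10 members had an unadjusted p below 0.05 in limma's fit, against 14.3% of all genes, 7.05% higher and 7.25% lower. With Benjamini-Hochberg adjustment over all genes, 0 of the 26 members passed 0.05, and 1 gene of the 13087 did (0.00764%).

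The median log2 fold change, KO minus WT, was 0.07 over the 26 members and 0.01 over all genes tested. Its size without regard to sign was larger, with a median of 0.35 in the members and 0.16 in all genes. The members are long genes, with a median transcript length of 7498.5 bases against 4171 for all genes tested. Among the 7365 protein-coding genes within the members' range of length (3489 to 15888 bases), 12.6% had an unadjusted p below 0.05 and the median log2 fold change was 0.06. With the 2 libraries numbered 3 left out, 15 of 26 members (57.7%) had an unadjusted p below 0.05, against 14.4% of all genes. The count was also 15 without WT3 alone (57.7%, against 18.4% of all genes). It was 8 without WT1 (30.8%, against 9.51% of all genes) and 5 without KO2 (19.2%, against 6.72%).

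**Figure D1:**
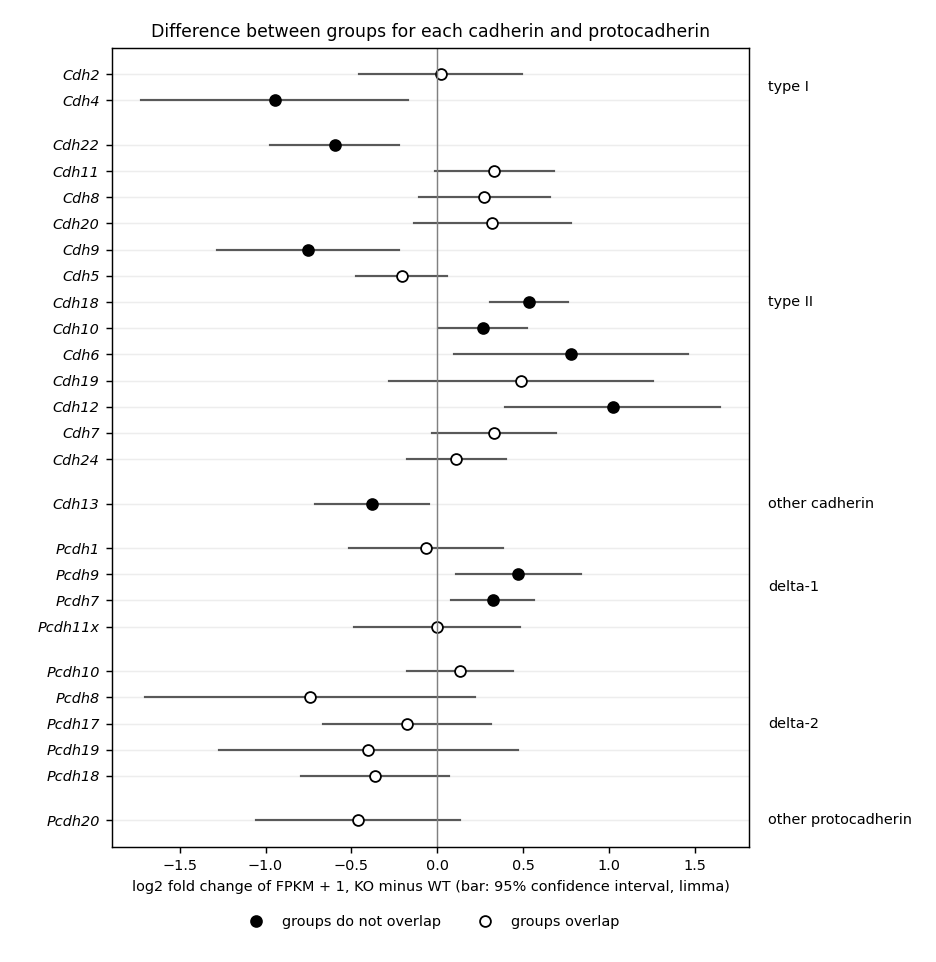
Log2 fold change of FPKM + 1, KO minus WT, for the 26 members tested, grouped by class, with the 95% confidence interval from limma as a bar. Filled points mark the 10 genes whose groups do not overlap, 6 to the right of 0 and 4 to the left.

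Levels ranged from 30.2 FPKM for Pcdh1 to 1.61 for Pcdh18, as means over the 6 libraries. The protocadherins Pcdh1, Pcdh9, Pcdh10, Pcdh8 and Pcdh7 and the cadherins Cdh22 and Cdh2 lay above 13 FPKM in this order of level: Pcdh1, Pcdh9 at 20.1, Cdh22 at 19.1, Pcdh10 at 16.8, Pcdh8 and Pcdh7 at 15.8 each and Cdh2 at 13.9. The order differed between the groups: Cdh22 and Pcdh8 were 2nd and 3rd in WT, at 23.4 and 20.7 FPKM, but 5th and 7th in KO, at 14.9 and 10.9, where Pcdh9 and Pcdh7 were 2nd and 3rd. Neighbours in the pooled order lay within each other's spread: Pcdh9, for instance, ranged from 14.2 to 25.3 FPKM and Cdh22 from 14.5 to 29.5. Cdh13 came next at 7.52, and the other tested members lay below it. Depth behind these values was 121.2 reads per library for Cdh24, the fewest of any tested member, and 4520.2 for Pcdh10, the most, with transcript lengths that differ between them.

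**Figure D2:**
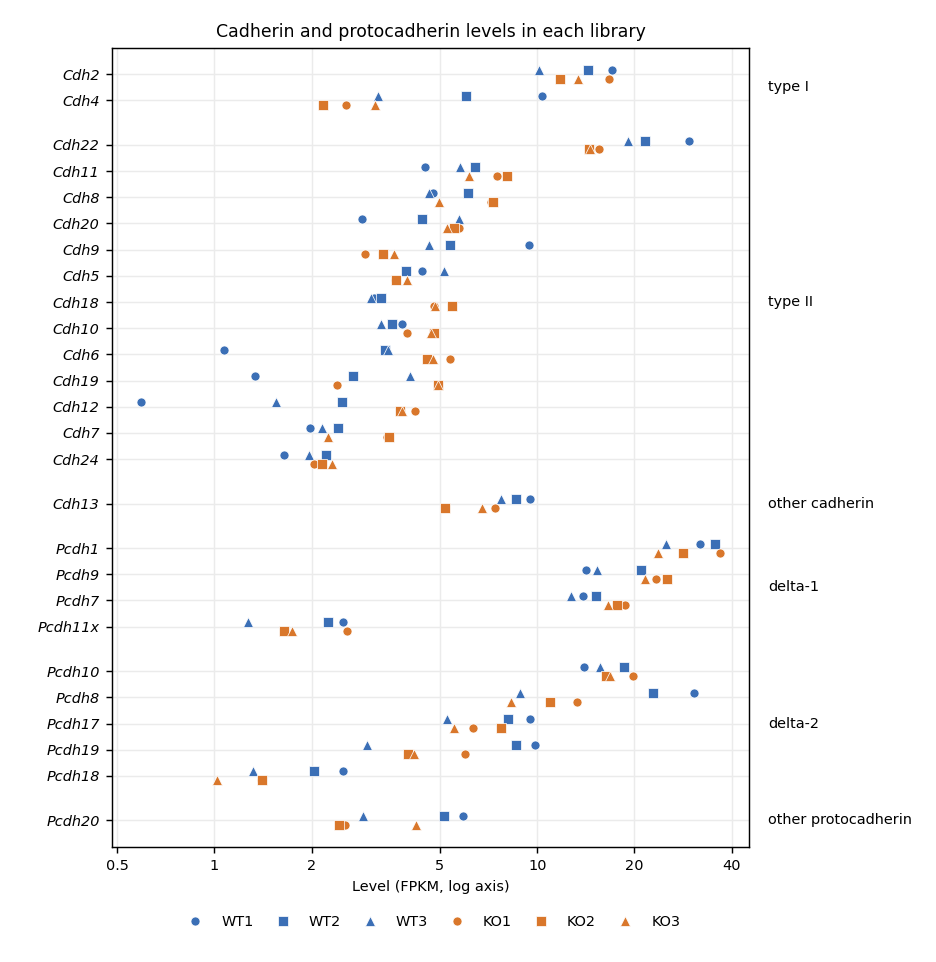
Level in FPKM on a log axis for each tested member in each library, with WT in blue and KO in orange and the symbol giving the library number. The KO points of Cdh12, Cdh6 and Cdh18 lie wholly to the right of the WT points, those of Cdh22, Cdh9 and Cdh4 wholly to the left, and the WT1 point is often the outermost.

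Type II cadherins, the largest class, had separate groups in 6 of 13 genes (46.2%, beside 22% of all genes tested), 4 of them higher in KO and 2 lower. All 13 passed the filter, and 10 had a positive log2 fold change. Their summed level did not separate the groups: it was 64.4 to 69.1 FPKM in WT against 66.1 to 71.5 in KO.

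Cdh18, a cadherin of the central nervous system (ENSMUSG00000040420, chr15:22549022-23474418), stood at 3.12, 3.27 and 3.06 FPKM in WT1, WT2 and WT3 and at 4.80, 5.46 and 4.82 in KO1, KO2 and KO3. The libraries of each group lay close together and the groups were well apart. The means were 3.15 ± 0.11 and 5.03 ± 0.37 FPKM (SD, n = 3 each), a KO to WT ratio of 1.60. Its log2 fold change of 0.54 (SE 0.10) had an unadjusted p of 0.000767, rank 19 of the 13087 genes, and a limma adjusted p of 0.302.

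Cdh12, once named brain cadherin (ENSMUSG00000040452, chr15:20449265-21589533), stood at 0.594, 2.48 and 1.55 FPKM in WT1, WT2 and WT3 and at 4.17, 3.77 and 3.81 in KO1, KO2 and KO3. The KO libraries were nearly level with each other, while the WT libraries spread, with WT1 the lowest. The means were 1.54 ± 0.95 and 3.92 ± 0.22 FPKM, and the log2 fold change of 1.02 (SE 0.27, limma adjusted p = 0.302) was the largest positive one among the tested members. Its value in WT1 rested on 70 reads. Without WT1 the log2 fold change was 0.72, and with voom on the recovered reads it was 1.57.

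Cdh6, or K-cadherin, known from kidney and from defined retinal and cortical neurons (ENSMUSG00000039385, chr15:13028701-13173675), stood at 1.07, 3.37 and 3.45 FPKM in WT1, WT2 and WT3 and at 5.36, 4.55 and 4.75 in KO1, KO2 and KO3. WT1 lay far below the other WT libraries, which were nearly equal, and the groups did not overlap. The means were 2.63 ± 1.35 and 4.89 ± 0.42 FPKM, with a log2 fold change of 0.78 (SE 0.29, limma adjusted p = 0.323). Without WT1 it was 0.41, still with an unadjusted p below 0.05.

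Cdh10, which binds Cdh6 and Cdh9 across cell contacts (ENSMUSG00000022321, chr15:18818947-19014236), stood at 3.82, 3.54 and 3.27 FPKM in the WT libraries and at 3.94, 4.80 and 4.68 in the KO libraries. KO1 was only just above WT1, so the separation was narrow. The log2 fold change of 0.27 (SE 0.11) had a limma adjusted p of 0.342, and its unadjusted p was below 0.05 in 4 of 15 alternative analyses. It was 0.14 when the trend with gene length was removed and 0.19 with both libraries numbered 3 left out, neither with an unadjusted p below 0.05, and with the replicate number as a block the unadjusted p was 0.0742.

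Cdh9, known for its place at hippocampal mossy fibre synapses (ENSMUSG00000025370, chr15:16728756-16857094), went the other way. It stood at 9.41, 5.36 and 4.64 FPKM in WT1, WT2 and WT3 and at 2.92, 3.32 and 3.60 in KO1, KO2 and KO3. WT1 was the highest by far and every KO library lay below every WT library. The means were 6.47 ± 2.57 and 3.28 ± 0.34 FPKM, a ratio of 0.508, with a log2 fold change of -0.75 (SE 0.23, limma adjusted p = 0.303). Without WT1 it was -0.49.

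These 5 type II cadherins lie next to each other on chromosome 15 in the order Cdh6, Cdh9, Cdh10, Cdh12 and Cdh18, over 10.4 Mb, with 0 other protein-coding genes of the table between neighbours. All of them had separate groups, and Cdh9 alone was lower in KO. They were set side by side after their values were seen, so what follows is a description without a test. Their summed level was 17.3 ± 1.19 FPKM in WT against 21.6 ± 0.361 in KO. Cdh9 made up 52.2%, 29.7% and 29.0% of that sum in WT1, WT2 and WT3 and 15.2% ± 1.41 in KO. The share of Cdh12 was 8.93% ± 5.29 in WT and 18.2% ± 1.33 in KO. Cdh12 was at 0.0631, 0.463 and 0.334 times the level of Cdh9 in WT1, WT2 and WT3, and at 1.43, 1.13 and 1.06 times in KO1, KO2 and KO3. In the WT libraries Cdh9 was thus the higher of the pair and in the KO libraries Cdh12 was.

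**Figure D3:**
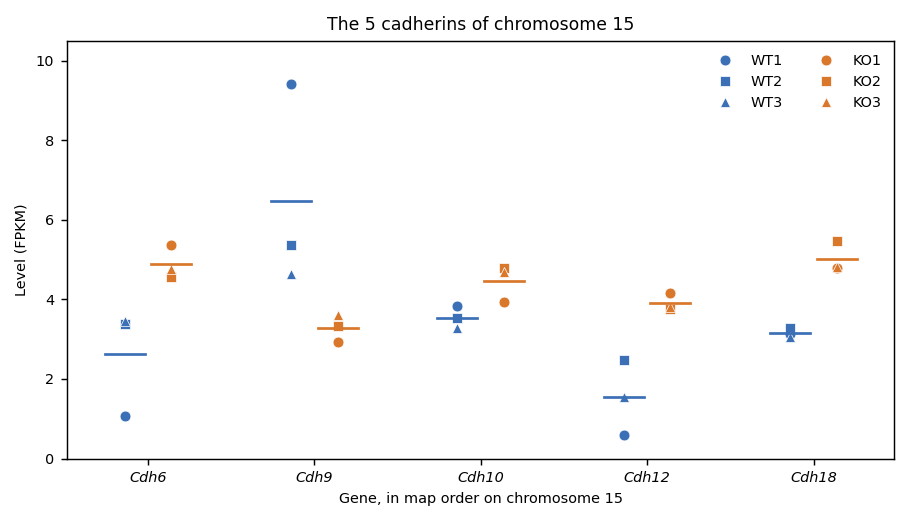
Level in FPKM of the 5 cadherins of chromosome 15, in map order, with 1 point per library and a line at each group's mean. Cdh6, Cdh10, Cdh12 and Cdh18 are higher in the 3 KO libraries, Cdh9 is lower in them, and WT1 holds the extreme WT value for Cdh6, Cdh9 and Cdh12.

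Cdh22, first described in pituitary and brain (ENSMUSG00000053166, chr2:165111507-165234853), was the type II cadherin of highest level. It stood at 29.5, 21.6 and 19.1 FPKM in WT1, WT2 and WT3 and at 15.5, 14.5 and 14.6 in KO1, KO2 and KO3. The KO libraries were nearly equal and all lay below the lowest WT library. The means were 23.4 ± 5.46 and 14.9 ± 0.545 FPKM, a ratio of 0.635, with a log2 fold change of -0.60 (SE 0.16, limma adjusted p = 0.302). Without WT1 it was -0.42.

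The other 7 type II cadherins had groups that overlapped. Cdh11, also a cadherin of mesenchymal cells, stood at 4.50, 6.41 and 5.75 FPKM in WT and at 7.49, 8.08 and 6.14 in KO. Cdh8, known from corticostriatal synapses, stood at 4.77, 6.09 and 4.63 FPKM in WT and at 7.21, 7.29 and 4.98 in KO. Cdh7 stood at 1.98, 2.41 and 2.16 FPKM in WT and at 3.43, 3.46 and 2.25 in KO. In all of these genes KO1 and KO2 lay above every WT library and KO3 lay within the WT range. Their log2 fold changes were 0.33, 0.27 and 0.33, and without KO3 they were 0.43, 0.43 and 0.48, each then with an unadjusted p below 0.05. With both libraries numbered 3 left out, Cdh11 was at 0.46 and Cdh7 at 0.48, again with an unadjusted p below 0.05. The replicate number as a block gave Cdh11 an unadjusted p of 0.0499.

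Cdh20 stood at 2.86, 4.40 and 5.73 FPKM in the WT libraries and at 5.74, 5.50 and 5.25 in the KO libraries. Cdh19, known from the Schwann cell lineage, stood at 1.34, 2.70 and 4.03 FPKM in WT and at 2.39, 4.94 and 4.92 in KO. In both genes WT1 was the lowest library and WT3 reached into the KO range, and the log2 fold changes were 0.32 (SE 0.19) and 0.49 (SE 0.33). Between libraries of the same number, Cdh19 was higher in KO in all 3 pairs, and with the replicate number as a block its unadjusted p went from 0.179 to 0.0112 (limma adjusted p = 0.221). With both libraries numbered 3 left out, Cdh20 was at 0.53 with an unadjusted p below 0.05. With Cdh7, these genes lie on chromosome 1 within 6.21 Mb. Cdh24 differed little, at 1.94 ± 0.29 FPKM in WT against 2.17 ± 0.14 in KO. Cdh5, the VE-cadherin of endothelial cells, was at 4.40, 3.93 and 5.14 FPKM in WT and at 3.62, 3.66 and 3.94 in KO (log2 fold change -0.21, SE 0.11). Its groups touched at WT2 and KO3. The 10 endothelial markers listed beside it summed to 76.4 to 135.3 FPKM in WT against 75.6 to 101.8 in KO. Of these 10, 0 had an unadjusted p below 0.05, beside 14.3% of all genes tested, and none was at 0 in any library.

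Of the 5 type I classical cadherins, 2 passed the filter. Cdh4, or R-cadherin, a cadherin of axon growth and forebrain boundaries (ENSMUSG00000000305, chr2:179442431-179899373), stood at 10.3, 6.01 and 3.22 FPKM in WT1, WT2 and WT3 and at 2.56, 2.18 and 3.14 in KO1, KO2 and KO3. The WT libraries covered a wide range, and WT3 was only just above KO3. The means were 6.52 ± 3.58 and 2.62 ± 0.48 FPKM, a ratio of 0.402. Its log2 fold change of -0.95 (SE 0.33, limma adjusted p = 0.313) was the most negative of the tested members, and it was -0.59 without WT1 and -1.41 with the libraries numbered 3 left out.

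Cdh2, the N-cadherin of neural tissue and synapses, stood at 17.0, 14.4 and 10.1 FPKM in WT and at 16.6, 11.7 and 13.3 in KO. The groups covered the same range, and the log2 fold change of 0.02 had a 95% confidence interval from -0.45 to 0.49. Its sign turned when the libraries were rescaled to a common sum, when the trend with gene length was removed and with voom.

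Cdh13, or T-cadherin, is held in the membrane by a lipid anchor in place of a cytoplasmic tail (ENSMUSG00000031841, chr8:118283733-119324921). It stood at 9.47, 8.62 and 7.72 FPKM in the WT libraries and at 7.39, 5.16 and 6.73 in the KO libraries. KO1 lay just below WT3 and the groups did not overlap. The means were 8.60 ± 0.88 and 6.43 ± 1.14 FPKM, a ratio of 0.747, with a log2 fold change of -0.38 (SE 0.14, limma adjusted p = 0.323). The value was -0.25 without KO2.

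Cdh13 starts 5.40 Mb from Cntnap4 on chromosome 8, the nearest of 8 members on that chromosome. Cdh1, Cdh3, Cdh16, Cdh5, Cdh11 and Cdh15 also lie within 10 Mb of it and Cdh8 lies 13.2 Mb away. Of the 170 tested genes within 10 Mb of Cntnap4, 24 had an unadjusted p below 0.05 (14.1%), close to the 14.3% of all genes tested. Of the 3 tested members there, Cdh13, Cdh5 and Cdh11, only Cdh13 had one. Sequence of another strain around a targeted gene was not tested, since the labels give neither the allele nor the strain.

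Delta-1 protocadherins had 2 of 4 tested genes with separate groups (50%, beside 22% of all genes tested), both higher in KO. Pcdh9 (ENSMUSG00000055421, chr14:93013410-93890679) stood at 14.2, 21.0 and 15.3 FPKM in WT1, WT2 and WT3 and at 23.4, 25.3 and 21.6 in KO1, KO2 and KO3. WT2 came close to KO3 and the other WT libraries lay well below. The means were 16.8 ± 3.66 and 23.4 ± 1.86 FPKM, a ratio of 1.39, with a log2 fold change of 0.47 (SE 0.15, limma adjusted p = 0.303). With both libraries numbered 3 left out it was again 0.47, with an unadjusted p of 0.0619.

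Pcdh7, first found in brain and heart (ENSMUSG00000029108, chr5:57717967-58133230), stood at 13.8, 15.2 and 12.8 FPKM in the WT libraries and at 18.7, 17.7 and 16.5 in the KO libraries. The groups did not overlap, but WT2 at 15.2 lay nearer to KO3 at 16.5 than to WT3 at 12.8. The means were 13.9 ± 1.21 and 17.6 ± 1.10 FPKM, a ratio of 1.27, with a log2 fold change of 0.32 (SE 0.10, limma adjusted p = 0.303). It was 0.19 when the trend with gene length was removed, with an unadjusted p that no longer fell below 0.05.

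Pcdh1, also a protein of epithelial junctions and the member of highest level, stood at 31.9, 35.6 and 25.0 FPKM in WT and at 36.8, 28.3 and 23.7 in KO. Pcdh11x, of the X chromosome, stood at 2.51, 2.25 and 1.27 FPKM in WT and at 2.57, 1.64 and 1.74 in KO. Neither gene separated the groups, and both had log2 fold changes near 0, at -0.06 (95% confidence interval -0.51 to 0.39) and -0.00 (-0.48 to 0.48). The sign of Pcdh11x turned with quantile normalization.

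Delta-2 protocadherins had 0 of 5 genes with separate groups (beside 22% of all genes tested), and 4 of the 5 log2 fold changes were negative. Pcdh8, or arcadlin, which neuronal activity induces and which takes N-cadherin from the synaptic surface, stood at 30.5, 22.8 and 8.88 FPKM in WT1, WT2 and WT3 and at 13.3, 11.0 and 8.29 in KO1, KO2 and KO3. WT1 and WT2 lay above every KO library, while WT3 fell within the KO range. The means were 20.7 ± 11.0 and 10.9 ± 2.50 FPKM, with a log2 fold change of -0.74 (SE 0.41, limma adjusted p = 0.429).

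Pcdh19, an X-linked gene known from an inherited epilepsy, also had WT1, WT2 and KO1 as its highest libraries, at 9.84, 8.62 and 2.97 FPKM in WT against 5.97, 3.98 and 4.16 in KO. WT3 was the lowest of all 6, and the log2 fold change was -0.40 (SE 0.37). Without WT3 the log2 fold changes were -1.23 for Pcdh8 and -0.86 for Pcdh19, and without WT1 they were -0.39 and -0.13. With both libraries numbered 3 left out they were -1.07 and -0.79, each with an unadjusted p below 0.05. With the replicate number as a block, Pcdh8 had an unadjusted p of 0.0165 and a limma adjusted p of 0.229.

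Pcdh18 stood at 2.51, 2.03 and 1.31 FPKM in WT and at 1.40, 1.41 and 1.02 in KO, with WT3 inside the KO range (log2 fold change -0.36, SE 0.18). It was -0.44 with both libraries numbered 3 left out, with an unadjusted p below 0.05, and the replicate number as a block gave an unadjusted p of 0.0419. Pcdh17, known from presynaptic terminals of cortical and basal ganglia circuits, stood at 9.52, 8.11 and 5.25 FPKM in WT and at 6.32, 7.72 and 5.52 in KO (log2 fold change -0.17, SE 0.21). Pcdh10, a partner of the WAVE complex in axons, stood at 14.0, 18.6 and 15.6 FPKM in WT and at 19.8, 16.3 and 16.8 in KO (log2 fold change 0.13, SE 0.13). In 4 of the 5 delta-2 genes WT3 was the lowest WT library, and Pcdh10 was the exception. The sign of Pcdh10 turned when the trend with gene length was removed. Pcdh20, placed in neither delta group here, stood at 5.88, 5.14 and 2.89 FPKM in WT and at 2.54, 2.44 and 4.20 in KO (log2 fold change -0.46, SE 0.25). WT3 and KO3 crossed over, and without both of them the value was -0.90, with an unadjusted p below 0.05.

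The 9 members below the filter were Cdh1, Cdh3, Cdh15, Cdh16, Cdh17, Cdh23, Cdh26, Pcdh12 and Pcdh15. They are best known from epithelia, kidney, gut, muscle, endothelium and the hair cells of the inner ear. Their values ran from 0 to 1.91 FPKM, and Cdh16, the kidney cadherin, was listed at 0 in every library. The highest single value was Cdh15, or M-cadherin, in WT1, at 1.91 FPKM. Cdh15 was at 0.729 and 0.638 in WT2 and WT3 and at 0.337 to 0.597 in the KO libraries. Cdh1, or E-cadherin, was also highest in WT1, at 1.23 FPKM against 0.199 to 0.572 elsewhere. Cdh15 and Cdh23 were lower in each KO library than in any WT library, on 18 to 116 and 18 to 58 reads per library. Groups did not overlap in 22% of all genes tested. The members below the filter had no test in the main analysis. Reads of Cdh23 could come in part from Vsir, which overlaps it on the opposite strand, since nothing used here states whether reads were counted by strand.

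The spread between WT libraries was large for these genes. The median SD of log2(FPKM + 1) within WT was 0.309 over the 26 members and 0.167 over the 10023 tested genes in the members' range of level, against 0.162 and 0.129 within KO. The SD was larger in WT than in KO for 20 of the 26 members (76.9%) and for 63.5% of all genes tested. WT1 held the lowest value of 9 members and the highest of 10, together 73.1% of members against 52.3% of all genes. WT2 held neither for any member, against 19.6% of all genes. The libraries WT1 and WT2 thus carry the same label but differed in most members, with WT1 the farther of the pair from the KO mean in 9 of the 10 genes with separate groups, Cdh10 being the exception.

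Some lists of cell type markers also held genes with an unadjusted p below 0.05, and others held none. Basolateral projection neuron markers deviated from the mean of the 6 libraries by -0.82, 0.07 and -0.30 log2 units in WT1, WT2 and WT3 and by 0.50, 0.47 and 0.07 in KO1, KO2 and KO3, averaged over 8 genes. All 8 had a positive log2 fold change and 5 had an unadjusted p below 0.05 (62.5%, beside 14.3% of all genes tested). Neurod6, a nuclear regulator of forebrain excitatory neurons, stood at 7.06, 18.3 and 17.0 FPKM in WT against 27.1, 34.1 and 28.8 in KO. The summed level of the 8 was 342.0 to 438.6 FPKM in WT against 374.3 to 600.5 in KO, and Slc17a7, the vesicular glutamate transporter that defines these neurons, stood at 257.5 ± 43.2 and 278.9 ± 81.7 FPKM. Rspo2, a marker of the basolateral amygdala itself, was found in all 6 libraries at 2.03 to 4.12 FPKM. WT1 was the lowest library by this average deviation, though not by the sum, which was lowest in WT3. WT1 was also the lowest for 9 of the 26 members and for 3593 of the 13087 genes tested. These members were Cdh12, Cdh6, Cdh20, Cdh11, Cdh7, Cdh24, Cdh19, Pcdh9 and Pcdh10. Cdh18, Cdh10 and Pcdh7, also higher in KO, were lowest in WT3. The part of the markers in those results was not tested.

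Oligodendrocyte precursor markers went the other way, with 8 of 8 negative and 6 of 8 (75%) at an unadjusted p below 0.05, beside 14.3% of all genes tested. Their sum was 115.8 to 146.4 FPKM in WT against 97.8 to 98.3 in KO. Meningeal fibroblast markers summed to 55.1 FPKM in WT1, 27.3 and 19.1 in WT2 and WT3, and 25.7, 13.0 and 12.2 in the KO libraries. Of the 9 tested, 3 (33.3%, beside 14.3% of all genes tested) had an unadjusted p below 0.05, all lower in KO. Both lists were highest in WT1. So were 10 of the 26 members, Cdh4, Cdh9, Cdh22 and Cdh13 among them, and 3258 of the 13087 genes tested. Myelinating oligodendrocyte markers were lowest in WT1, at 273.2 FPKM against 536.0 and 784.1 in the other WT libraries and 576.3 to 805.7 in KO, with 8 of 8 positive and 0 of 8 at an unadjusted p below 0.05. Cdh19 was lowest in WT1 too.

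Of the remaining lists, inhibitory neuron markers summed to 443.0 to 601.0 FPKM in WT against 395.2 to 437.1 in KO, with Sst alone at 433.0 of the 601.0 FPKM in WT1. Of the 8, 4 log2 fold changes were positive and 4 negative (median -0.01). Sst and Slc32a1 had an unadjusted p below 0.05 (25% of the 8, beside 14.3% of all genes tested), both lower in KO. Gad1 was higher in each KO library than in any WT library. Astrocyte markers summed to 552.0 to 863.6 FPKM in WT against 594.5 to 672.1 in KO. Of the 8, 1 (Mlc1, 12.5%, beside 14.3% of all genes tested) had an unadjusted p below 0.05, lower in KO. Choroid plexus and ependymal markers summed to 18.4 to 53.9 FPKM in WT against 6.27 to 26.4 in KO, with Tmem212 and Folr1 at 0 in some libraries. Of the 3 tested, 1 (Clic6, 33.3%, beside 14.3% of all genes tested) had an unadjusted p below 0.05, lower in KO. Striatal and central amygdala markers had 9 of 9 negative and 0 of 9 at an unadjusted p below 0.05, and Isl1 was at 0 in KO1 and KO2. The part of these markers in the members' differences was not tested, and in bulk tissue fewer cells of a type and less RNA per cell cannot be told apart.

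**Figure D4:**
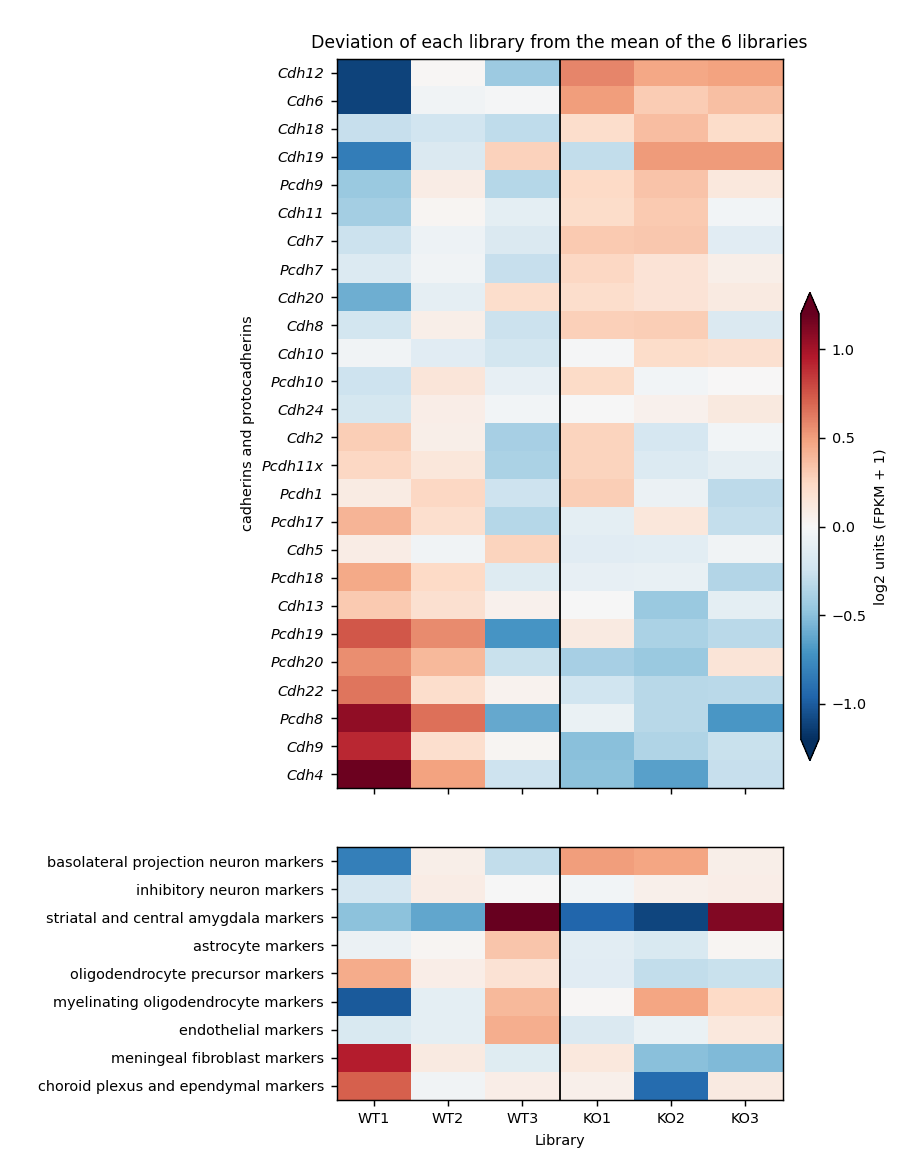
Deviation of log2(FPKM + 1) in each library from the mean of the 6 libraries, for the 26 members ordered by log2 fold change (upper block) and as the average over each list of cell type markers (lower block), on a colour scale that ends at 1.2 in each direction. WT1 carries the strongest colours among the members, and the average for projection neuron markers is lowest in WT1 and highest in KO1 and KO2.

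Of the 10 tested members with separate groups, 8 still had an unadjusted p below 0.05 without WT1, and Cdh13 and Pcdh9 did not. Cdh18, Cdh12, Cdh22 and Cdh9 had an unadjusted p below 0.05 under all 15 alternatives. The same held for Pcdh7 under 13, for Cdh4, Cdh6 and Cdh13 under 12 each and for Pcdh9 under 11. Without KO2, Cdh4, Cdh6, Cdh10, Cdh13 and Pcdh9 no longer had one, without KO1 it was Cdh4, Cdh6 and Pcdh7, without KO3 Cdh6 and Cdh10, without WT2 Cdh4, Cdh10 and Cdh13, and without WT3 Cdh10 and Pcdh9.

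Binding partners and relatives of the cadherins had separate groups in 1 of 10 catenins and junction linkers, 1 of 4 processing proteases, 2 of 9 WAVE complex genes and 1 of 9 other cadherin superfamily genes, beside 22% of all genes tested. Of the 10 tested catenins and junction linkers, 1 had an unadjusted p below 0.05 (10%, beside 14.3% of all genes tested). It was Ctnna2, the alpha-catenin of neurons, at 17.4, 17.5 and 19.5 FPKM in WT against 21.2, 22.0 and 22.9 in KO (log2 fold change 0.27, limma adjusted p = 0.311). Every KO library was above every WT library. Ctnnb1, beta-catenin, stood at 89.1 ± 21.2 FPKM in WT against 70.5 ± 8.02 in KO with groups that overlapped, and Afdn, which links nectins to actin, at 8.58 ± 0.89 and 10.1 ± 0.62.

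Adam10, the protease that sheds N-cadherin from the surface, was at 17.2, 18.4 and 18.2 FPKM in WT against 21.9, 20.7 and 21.0 in KO (log2 fold change 0.23, limma adjusted p = 0.323). It was the 1 of 4 tested processing proteases with separate groups, and Furin (-0.14) and Psen2 (-0.11) had overlapping ones.

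Of 9 tested genes of the WAVE complex, 1 had an unadjusted p below 0.05 (11.1%, beside 14.3% of all genes tested). It was Cyfip2, at 117.3, 182.5 and 164.3 FPKM in WT against 219.5, 221.2 and 181.3 in KO (log2 fold change 0.44, limma adjusted p = 0.347). KO3 lay just below WT2, so its groups overlapped. Nckap1, which Pcdh10 binds, was at 126.4 ± 3.49 FPKM in WT against 146.4 ± 6.31 in KO, and Abi1 at 29.2 ± 0.91 and 32.3 ± 1.31, both without overlap.

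Of 9 tested genes of the other cadherin superfamily branches, 1 had an unadjusted p below 0.05 (11.1%, beside 14.3% of all genes tested). Clstn2, a calsyntenin of postsynaptic membranes, stood at 8.26, 16.1 and 12.5 FPKM in WT1, WT2 and WT3 and at 27.6, 22.1 and 17.0 in KO1, KO2 and KO3. WT1 was the lowest and KO1 the highest, and the groups did not overlap (log2 fold change 0.83, SE 0.26, limma adjusted p = 0.303). Celsr3, a guide of axon tracts, and Fat3, of dendrite patterning, had log2 fold changes of 0.30 and 0.37 with overlapping groups. Over these 4 lists, 0 genes passed an adjusted p of 0.05.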

How the data were processed

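Gene-level FPKM for 6 libraries was deposited as 1 table by the authors, with gene positions, lengths and biotypes per the file headers. Library preparation used a SMARTER mRNA kit, per the labels' protocols. The builds GRCm38 and mm10 come from the submitters' processing notes. Aligner, counter, annotation version and strand use were not given in the sources used here. FPKM times gene length gave whole reads for 100% of values (tolerance 0.01 reads), and those reads entered only 1 alternative.

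Genes averaging 1 FPKM or more were compared, KO minus WT, on log2(FPKM + 1) with limma 3.58.1 in R 4.3.3 (variance trend, two-sided, Benjamini-Hochberg over 13087 genes, threshold 0.05). This scale understates changes of low genes. For 1 gene, 3 against 3 libraries cannot give an exact permutation p below 0.1. SE is the moderated standard error and ± is the SD. The fit was tested on simulated data.

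All tested members are named; of each partner list, the 3 genes of smallest p, and of marker lists, genes given beside a result. The members and lists were chosen with earlier results of these data known. Deviations from group means correlated between same-numbered WT and KO libraries at r = 0.175, 0.145 and 0.33 across genes, all above 0.1. The label numbers were therefore used as a replicate block in an alternative, while the main fit used no pairing. WT2 and KO1 correlated at 0.283, above the pairs numbered 1 and 2, so the numbers may not pair the libraries. With the block, 0 genes in place of 1 passed the adjusted threshold. Other alternatives were another pseudocount, 2 filters, 2 scalings, removal of the length trend, voom on recovered reads, each library left out and, chosen after seeing the data, both libraries numbered 3 left out.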

Additional observations from a re-analysis of the deposited data

How the results depend on the processing

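No member passed an adjusted p of 0.05 under any of 15 alternatives. The count of all genes that passed was 1 and became 0 with no filter, a filter at 0.1 FPKM, quantile normalization, the length trend removed, the replicate block and both libraries numbered 3 left out; it stayed at 1 with voom on recovered reads, a common sum and a pseudocount of 0.1, and it ranged from 0 to 9 when 1 library was left out, 9 being without WT3 (4 higher, 5 lower). The count of members at an unadjusted p below 0.05, 10 in the main analysis, ranged from 5 (without KO2) to 15 (without WT3) when 1 library was left out, and was 8 to 11 under the other alternatives except for 13 with the replicate block and 15 without the libraries numbered 3. The share of all genes moved too: 14.3% in the main analysis, 6.72% without KO2 and 18.4% without WT3. It was 17.8% with the replicate block and 14.4% without the libraries numbered 3. With the block, Cdh10 no longer had an unadjusted p below 0.05 and Cdh11, Cdh19, Pcdh8 and Pcdh18 did; it changed no other call of a member. The median log2 fold change of the members lay between -0.06 and 0.12 under the alternatives, within the SD between libraries of 0.14. Of the 26 members, 22 kept their sign throughout, the 10 with separate groups among them. For those 10 this says little. Leaving out libraries, the block, another pseudocount or another filter cannot turn the sign of groups that do not overlap. Cdh2 turned to -0.0057 with a common sum, -0.0722 without the length trend, -0.0040 with voom and -0.152 without the libraries numbered 3, and ranged from -0.173 to 0.174 when 1 library was left out. Pcdh11x turned to 0.0079 with a pseudocount of 0.1 and 0.0175 with quantile normalization and ranged from -0.193 to 0.121 when 1 library was left out; Pcdh1 ranged from -0.227 to 0.0794, and Pcdh10 turned to -0.0548 without the length trend. The cause of these turns was not tested. Among the tested members, depth was lowest for Cdh24, Pcdh18 and Cdh19, at a mean of 121.2, 148.3 and 244.2 reads per library. Of the 9 untested members, Pcdh15 lay above these, at a mean of 273.2 reads, and the others had 43.5 (Cdh15) or fewer.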
